A study of Mus musculus with 6 samples.

Results

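The DDX and DHX genes are the RNA helicase genes of the mouse whose symbols begin with Ddx or Dhx followed by a number. They were measured in tumour-associated macrophages, the macrophages found inside a tumour, on 6 Affymetrix Mouse Gene 1.0 ST arrays. A gene entered when a probe set carried its symbol alone in the platform annotation, and the brightest probe set over the 6 arrays stood for the gene. Ddx58, Dhx58, Ddx3x and Ddx3y were left out. This gave 48 genes of the 19938 in the table, 33 with Ddx symbols and 15 with Dhx symbols. The PLX3397 group (n = 3 arrays) came from C57BL/6 mice with hepa1-6 tumours in the liver that received PLX3397, a small molecule that blocks the receptor kinase CSF1R, on which macrophages depend, as well as KIT and FLT3. The vehicle group (n = 3 arrays) came from mice of the same strain with the same tumours that received vehicle. Hepa1-6 is a mouse hepatoma cell line, and its implanted tumours were the source of the sorted cells in both groups. The labels name the samples biological replicates but do not say how many animals each holds, so p-values measure the spread between these samples, which may be technical. The description field also gives every sample a second name, of macrophages given LPS with interferon-gamma in the vehicle group and of macrophages given IL4 in the PLX3397 group. Those names go against the titles, the sources and the treatment field, which set the groups used here.

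RNA helicases use ATP to pull apart base-paired RNA or to strip proteins off RNA. The DDX proteins are named after a motif with the amino acids Asp-Glu-Ala-Asp, the DEAD box, and open short duplexes locally, while most DHX proteins carry the DEAH motif and move along a strand. Members of the family serve at each stage in the life of an RNA, among them assembly of ribosomes in the nucleolus, splicing, export from the nucleus, translation and decay, and some sense or fight viruses in macrophages and other cells.

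The deposited values are log2 intensities per probe set. The background level of an array was the value below which 95% of its 1194 odorant and pheromone receptor genes fell, and it lay between 3.56 and 3.58 on PLX3397 arrays and between 3.52 and 3.53 on vehicle arrays. Across all genes, which are not independent replicates, arrays of a group correlated at 0.9916 or more and arrays of different groups at 0.9612 or less. PLX3397 replicate 3 stood apart for some genes: 37 were higher there than in replicates 1 and 2 by more than 2 log2, and 0 genes stood out upward by that much on a different array. None of the 48 helicase genes lay over 0.5 log2 from the other arrays of its group on any array, and the largest such gap was 0.46. All 8 macrophage markers, among them Adgre1, Cd68 and Csf1r, were above background on every array, with 2 called higher and 3 lower. All 4 NK cell markers and the T cell markers Cd3d and Cd3g were below it on every array. So were the hepatocyte genes Alb, Fabp1 and Ttr. The T cell markers Cd3e, Cd4 and Cd8a and the hepatoma gene Afp were above it on every array. The hepatocyte gene Apoa1 was above it on 3 PLX3397 arrays and 2 vehicle arrays. None of the measured T cell, hepatocyte or hepatoma markers was called. Of 6 endothelial markers 4 were called higher with PLX3397, and the log2 of their summed signal was 8.71 to 8.74 on PLX3397 arrays and 7.26 to 7.40 on vehicle arrays. For the 8 neutrophil markers it was 8.67 to 9.52 on PLX3397 arrays and 7.86 to 7.95 on vehicle arrays. Ly6g, Ngp, Ltf and Retnlg were below background throughout. S100a8, by far the brightest of the 8, was called higher, with means of 8.74 with PLX3397 and 7.22 with vehicle. The other called rises were those of Ly6g and Ltf, while S100a9, Mpo and Camp were not called, at 0.33, 0.16 and -0.19. For 5 proliferation markers the log2 of the summed signal was 7.97 to 8.21 on PLX3397 arrays and 7.52 to 7.64 on vehicle arrays. Of them 4 were called higher, by 2.12 for Top2a, 0.56 for Cdk1, 0.31 for Birc5 and 0.28 for Aurkb. Mki67 was not called, at -0.10. Of 3 B cell markers 2 were called higher, with Cd79a and Ms4a1 below background throughout, and of 6 fibroblast markers 2 were called lower and 0 higher. The median change of the fibroblast list was 0.21, and the log2 of its summed signal was 8.61 to 9.63 on PLX3397 arrays and 8.45 to 9.14 on vehicle arrays. The part of these cells in the results below was not tested. In sorted bulk cells, fewer cells of a type and less RNA per cell cannot be told apart. For the marker counts above, the shares over all genes were 19.6% called higher and 18.3% lower.

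With PLX3397 the helicase genes moved mostly downward. Of the 48 genes 25 were called lower and 1 higher (limma, adjusted p below 0.05 over all 19938 genes), while over all genes 18.3% were called lower and 19.6% higher, 37.8% in either direction. At an unadjusted p below 0.05 the helicase counts were 26 lower and 2 higher, against 20.6% of all genes lower and 24.6% higher. The median change of the 48 genes, PLX3397 minus vehicle, was -0.29 log2, with quartiles of -0.63 and -0.03, and the median over all genes was 0.04. On single arrays the median level of the 48 genes was 6.15, 6.09 and 5.97 in PLX3397 replicates 1, 2 and 3, against 6.67, 6.69 and 6.73 in vehicle replicates 1, 2 and 3. The medians of the PLX3397 arrays were all below those of the vehicle arrays. The median of all 19938 genes ran the other way, at 4.57 to 4.60 on PLX3397 arrays and 4.44 to 4.47 on vehicle arrays. The groups did not overlap for 33 of the 48 genes, 28 of them lower and 5 higher with PLX3397, and they did not overlap for 49.3% of all genes. A called fall of at least 0.5 log2 was found for 16 helicase genes and for 11.4% of all genes, and a called rise of that size for 0 helicase genes and 8.7% of all genes.

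**Figure D1:**
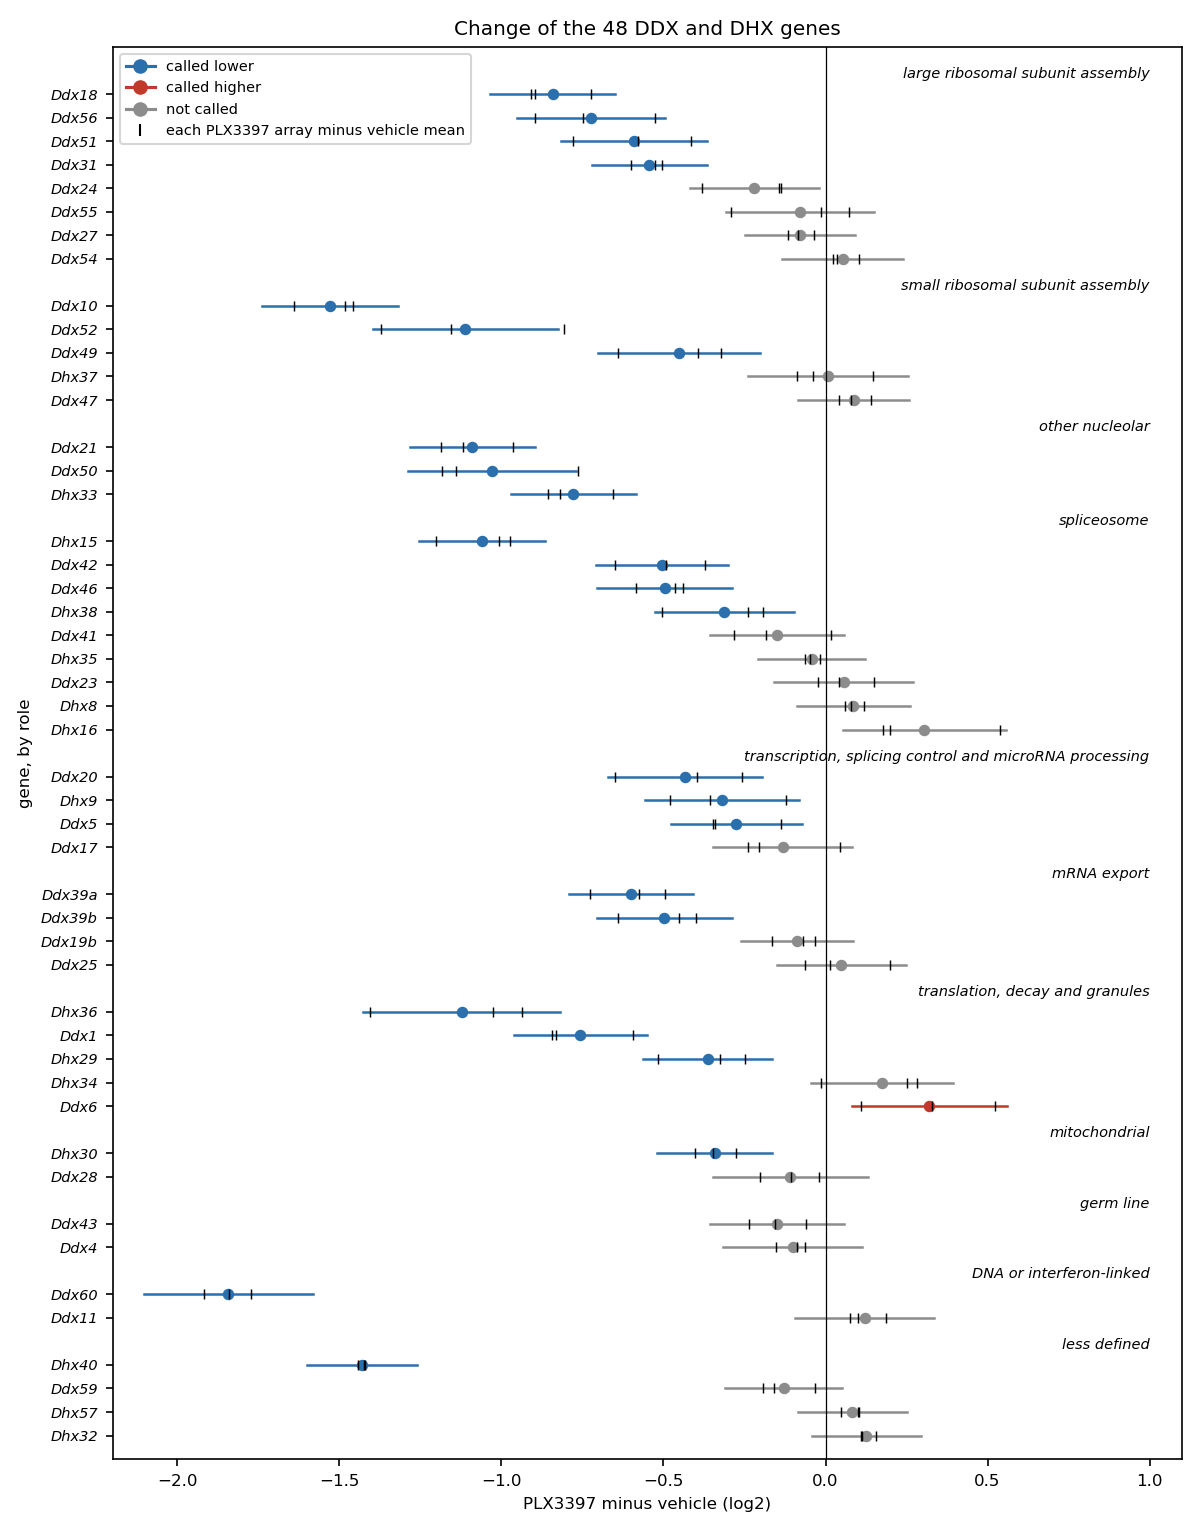
Change of each of the 48 DDX and DHX genes, PLX3397 minus vehicle on the log2 scale (horizontal axis), with genes down the vertical axis grouped by role. Circles with lines are limma changes with 95% confidence intervals, coloured by call, and black ticks are each PLX3397 array minus the vehicle mean. The 25 genes called lower span -1.84 to -0.28, and Ddx6 at 0.32 was called higher.

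Array centring changed the reference for these counts. With every array centred on its median the median change of all genes was -0.08 in place of 0.04, and 33.1% of calls over all genes were higher in place of 51.7%. The helicase counts were then 29 lower and 0 higher, against 24.4% of all genes called lower and 12.1% higher, and Ddx6 was no longer called (0.20, adjusted p = 0.179). Relative to the median of all genes, the helicase median was -0.33 with values as deposited, which centring cannot alter, and -0.24 with quantile normalisation.

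Level on the array also went with the counts. Of the 24 helicase genes with a mean of 6 to 8 log2, 17 were called lower, against 39.3% of all genes in that range. Of the 16 with a mean of 4 to 6, 6 were called lower, against 18.4% of all genes there. Of the 5 with a mean of 8 to 10, 2 were called lower and 1 higher, against 34% of all genes called lower there, and of the 3 under 4, 0 were called lower, against 3.48%. The median change in the range of 6 to 8 was -0.47 for the helicase genes and -0.12 for all genes, and in the range of 4 to 6 it was -0.10 for the helicase genes and 0.12 for all genes. All but 3 helicase genes were above background on all 6 arrays, and of the genes of the table for which that held, 26.3% were called lower and 26.4% higher.

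**Figure D2:**
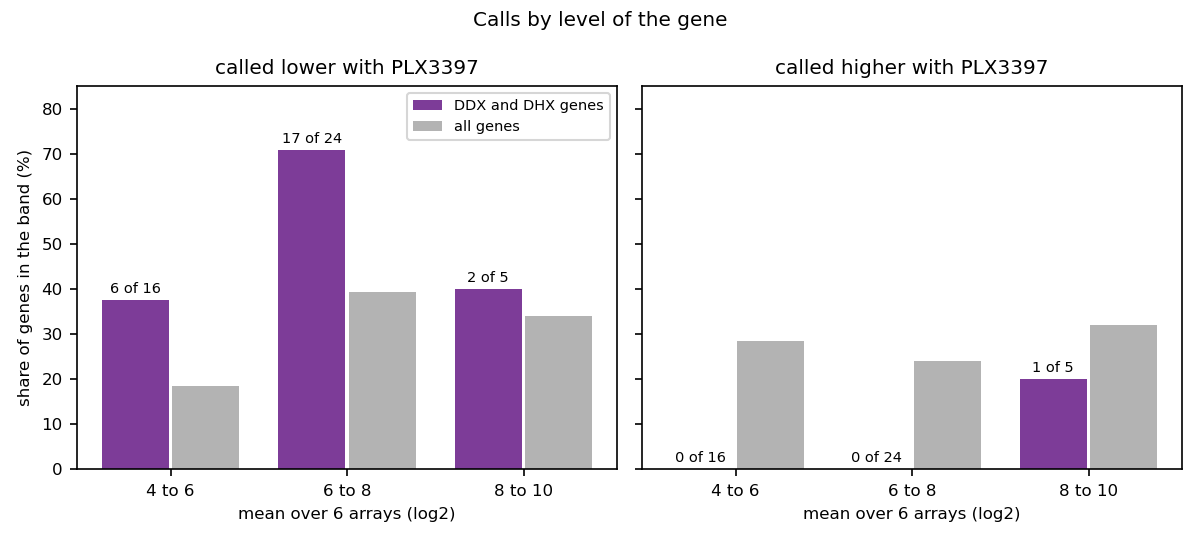
Share of genes called lower (left) and higher (right) with PLX3397, in percent, by the mean log2 value of the gene over 6 arrays. Purple bars are the DDX and DHX genes, with counts above them, and grey bars are all genes of the range, including the helicase genes. In the range of 6 to 8, 17 of 24 helicase genes were called lower, against 39.3% of all genes.

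The largest fall was that of Ddx60, an interferon-induced gene whose product takes part in antiviral defence. Its values were 5.29, 5.36 and 5.22 in PLX3397 replicates 1, 2 and 3, against 7.07, 7.40 and 6.94 in vehicle replicates 1, 2 and 3. The change was -1.84 (SE 0.12, adjusted p = 1.15e-06), or 3.59-fold lower, and the groups lay far apart relative to their spread. Dhx40, a DHX gene whose function is less defined, had 5.27, 5.26 and 5.24 on the PLX3397 arrays, against 6.68, 6.75 and 6.64 on the vehicle arrays. Each group was tight and the gap wide, with a change of -1.43 (SE 0.08, adjusted p = 3.55e-07).

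Genes for ribosome assembly in the nucleolus held several of the other large falls. Of 16 genes in 3 groups, for the large subunit, for the small subunit and other nucleolar helicases, 10 were called lower and 0 higher, with a median change of -0.57. Over all genes 18.3% were called lower, and 39.3% of those with a mean of 6 to 8 log2. The remaining 32 helicase genes had 15 lower and 1 higher with a median of -0.15, and the difference between these sets was not tested. Ddx10, whose yeast counterpart works in the maturation of the small subunit RNA, had 4.89, 4.92 and 4.73 on PLX3397 arrays, against 6.27, 6.52 and 6.33 on vehicle arrays. All PLX3397 arrays were lower than all vehicle arrays by over 1 log2, and the change was -1.53 (SE 0.09, adjusted p = 9.44e-07). Ddx52, also a small subunit factor by its yeast counterpart, had 5.63, 5.98 and 5.41 with PLX3397, against 6.75, 6.82 and 6.77 with vehicle. Its PLX3397 arrays were more scattered than its vehicle arrays, and the change was -1.11 (SE 0.13, adjusted p = 6.71e-05). Ddx49 of the same group fell by 0.45 (SE 0.11, adjusted p = 0.00933). Dhx37 and Ddx47, the remaining members of the small subunit group, were not called, at 0.01 (95% interval -0.24 to 0.25) and 0.09 (-0.08 to 0.26).

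The nucleolar genes Ddx21 and Ddx50 fell by nearly the same amount. They encode paralogous proteins, and RefSeq places them side by side on chromosome 10 with no other protein-coding gene between their starts. Ddx21, which links transcription by RNA polymerases with processing of ribosomal RNA, had 7.01, 6.86 and 6.79 with PLX3397, against 7.99, 8.02 and 7.91 with vehicle. Ddx50 had 5.22, 5.64 and 5.26 with PLX3397, against 6.36, 6.34 and 6.50 with vehicle. Neither gene's groups overlapped, and the changes were -1.09 (SE 0.09, adjusted p = 5.31e-06) for Ddx21 and -1.03 (SE 0.12, adjusted p = 5.73e-05) for Ddx50. Dhx33, a nucleolar helicase that supports transcription of ribosomal DNA and has been described as a sensor of cytosolic RNA for the inflammasome, fell by 0.78 (SE 0.09, adjusted p = 5.20e-05).

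Among 8 genes for the large subunit 4 were called lower, against 18.3% of all genes and 39.3% of those with a mean of 6 to 8 log2. Ddx18 had 6.85, 6.67 and 6.66 on PLX3397 arrays, against 7.49, 7.63 and 7.59 on vehicle arrays, a change of -0.84 (SE 0.09, adjusted p = 2.97e-05). Its other probe set gave -0.83. Ddx56, Ddx51 and Ddx31 fell by 0.72, 0.59 and 0.54. Ddx24, Ddx55, Ddx27 and Ddx54 were not called, with changes of -0.22, -0.08, -0.08 and 0.05. For Ddx24 the groups did not overlap (8.34, 8.34 and 8.10 with PLX3397, against 8.49, 8.46 and 8.49 with vehicle), and its adjusted p was 0.0807. The yeast counterparts of these 8 proteins act in maturation of the large subunit.

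**Figure D3:**
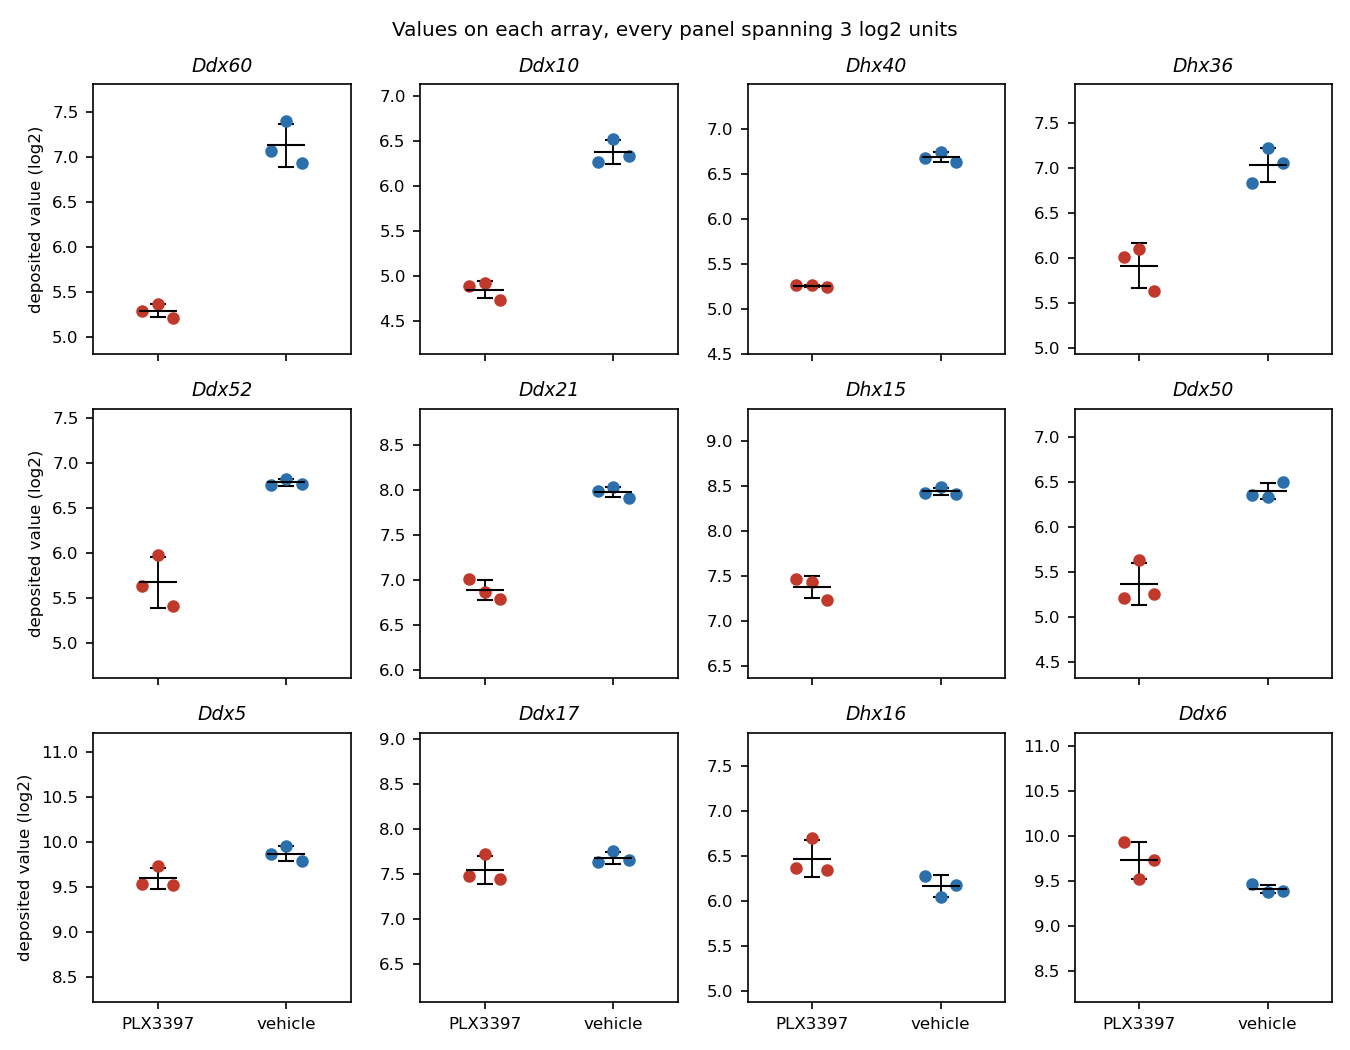
Deposited log2 values (vertical axes, each spanning 3 log2 units) of 12 genes on the 3 PLX3397 arrays (red, left) and the 3 vehicle arrays (blue, right), with the mean and SD in black. In the upper 2 rows of panels every PLX3397 array lies below every vehicle array, in the Ddx17 panel the groups overlap, and in the Dhx16 and Ddx6 panels the PLX3397 arrays are higher.

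The start regions of the 3 genes with the largest falls and of the neighbours Ddx21 and Ddx50 are shown because these genes moved together or moved most. Each window holds 250 bases before and 50 after the RefSeq gene start in build GRCm38.p6, read 5′ to 3′ on the strand of the gene, and for Ddx50 it is the one listed first of several. Capitals mark matches, on either strand, to any of several short motifs. They are the E-box, written CACGTG, the core bound by ETS factors, written CCGGAAG, the CCAAT box, the GC box, written GGGCGG, and the TATA box, written TATAAA. The core of the interferon-stimulated response element, in which GAAA is repeated after a gap of any 2 bases, was marked as well, and none of the marked matches overlap.
Ddx60, chr8:61927837-61928136, plus strand: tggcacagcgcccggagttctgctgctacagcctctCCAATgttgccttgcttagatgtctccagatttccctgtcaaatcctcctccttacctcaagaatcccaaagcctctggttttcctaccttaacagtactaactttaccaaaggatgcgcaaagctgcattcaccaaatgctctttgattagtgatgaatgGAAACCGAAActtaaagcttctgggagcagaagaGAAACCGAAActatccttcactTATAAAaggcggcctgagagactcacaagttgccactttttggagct
Ddx10, chr9:53248063-53248362, minus strand: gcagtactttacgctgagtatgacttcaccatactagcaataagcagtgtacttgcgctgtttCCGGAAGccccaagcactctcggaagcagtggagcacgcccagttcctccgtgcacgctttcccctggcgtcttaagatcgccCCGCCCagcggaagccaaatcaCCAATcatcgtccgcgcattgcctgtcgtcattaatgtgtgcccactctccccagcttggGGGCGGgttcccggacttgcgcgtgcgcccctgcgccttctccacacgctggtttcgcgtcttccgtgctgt
Dhx40, chr11:86807611-86807910, minus strand: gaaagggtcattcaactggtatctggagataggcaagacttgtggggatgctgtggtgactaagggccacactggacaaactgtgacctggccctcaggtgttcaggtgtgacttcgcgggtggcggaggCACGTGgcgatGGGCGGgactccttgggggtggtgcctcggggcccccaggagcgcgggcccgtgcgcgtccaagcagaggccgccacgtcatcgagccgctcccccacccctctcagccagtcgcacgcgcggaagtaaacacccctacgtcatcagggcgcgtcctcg
Ddx21, chr10:62602249-62602548, minus strand: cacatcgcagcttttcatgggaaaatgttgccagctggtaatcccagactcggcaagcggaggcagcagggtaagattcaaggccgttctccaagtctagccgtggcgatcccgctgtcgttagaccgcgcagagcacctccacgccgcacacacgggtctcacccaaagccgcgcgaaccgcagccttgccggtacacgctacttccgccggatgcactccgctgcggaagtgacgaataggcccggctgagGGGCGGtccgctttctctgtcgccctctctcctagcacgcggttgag
Ddx50, chr10:62651169-62651468, minus strand: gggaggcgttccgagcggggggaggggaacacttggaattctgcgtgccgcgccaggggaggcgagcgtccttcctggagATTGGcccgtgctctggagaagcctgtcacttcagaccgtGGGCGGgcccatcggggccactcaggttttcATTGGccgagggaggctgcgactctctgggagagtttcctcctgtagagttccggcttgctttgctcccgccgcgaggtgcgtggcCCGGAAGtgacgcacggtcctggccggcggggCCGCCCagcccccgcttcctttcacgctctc

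The Ddx60 window held both a TATAAA and a pair of matches to the interferon-stimulated element shortly before it. That element, which was added to the search with the Ddx60 fall known, stood in 3.44% of all 32851 windows. It stood in 2.94% of those of other genes above background. Of the helicase genes called lower, 3 of 29 windows held it, those of Ddx60 and Ddx49. Of the other helicase genes, 0 of 25 windows held it. CCGGAAG stood in 10 of the 29 windows of genes called lower and in 11 of 25 windows of the other helicase genes, against 8.86% of all windows and 15.6% of the 12766 windows of other genes above background on all 6 arrays. CACGTG stood in 4 of 29 and 3 of 25 helicase windows, against 7.15% of all windows and 9.66% of those of other genes above background. GGGCGG stood in 16 of 29 and 15 of 25, against 35.7% of all windows and 60.6% of those of other genes above background. CCAAT stood in 13 of 29 and 13 of 25, against 37.4% of all windows and 36.2% of those of other genes above background. TATAAA stood in 3 of 29 and 2 of 25, against 13.6% of all windows and 7.37% of those of other genes above background. RefSeq windows were matched by symbol for 43 of the 48 genes, and some genes have more than 1. These matches describe letters in a window and say nothing of the binding of a factor.

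Spliceosomal helicases were called lower or not called. Of 9 genes 4 were called lower and 0 higher, with a median change of -0.15. The share called lower was 18.3% over all genes and 39.3% over those with a mean of 6 to 8 log2. Dhx15, which takes apart the spliceosome after the intron has been released and also acts in ribosome assembly, had 7.46, 7.43 and 7.24 with PLX3397, against 8.42, 8.49 and 8.41 with vehicle. The groups were separated by nearly 1 log2, and the change was -1.06 (SE 0.09, adjusted p = 6.61e-06). Ddx42 and Ddx46, which act when the branch site of the intron is recognised, fell by 0.50 each (SE 0.09 each, adjusted p = 0.00149 and 0.00176). Dhx38, a helicase of the catalytic stage, was called at -0.31 (SE 0.10, adjusted p = 0.0271). That call was lost with quantile normalisation (-0.18, adjusted p = 0.126), without PLX3397 replicate 3 (-0.22, adjusted p = 0.0783) and without any of the vehicle arrays (adjusted p of 0.0587 to 0.0736). Dhx16, another helicase of the catalytic stage, had 6.36, 6.70 and 6.34 with PLX3397, against 6.28, 6.03 and 6.17 with vehicle. Its groups did not overlap and it lay just outside the threshold, with a change of 0.31 (SE 0.11, adjusted p = 0.0580). It passed as higher in 4 of 17 alternatives and was not called in 13. The 4 were quantile normalisation (0.41, adjusted p = 0.0109), both filters on dim genes (0.0460 and 0.0427) and leaving out PLX3397 replicate 3 (0.0359). With centred arrays its change was 0.19 (adjusted p = 0.223). Dhx8, which releases the spliced RNA, had a change of 0.09 and Ddx23, which helps to activate the spliceosome, one of 0.06, and neither was called. Ddx41, a splicing factor that has also been described as a sensor of cytosolic DNA in myeloid cells, was not called at -0.15 (95% interval -0.36 to 0.06), nor was Dhx35 at -0.04.

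Of 4 helicases that act in transcription, splicing control and the processing of microRNAs, 3 were called lower. The share over all genes was 18.3%, and 39.3% over those with a mean of 6 to 8 log2. The calls of Ddx5 and Dhx9 depended on single arrays. Ddx5, a coactivator and splicing regulator that also joins the Drosha complex, had 9.53, 9.73 and 9.52 with PLX3397, against 9.86, 9.96 and 9.79 with vehicle. The groups came close without overlapping, and the change was -0.28 (SE 0.09, adjusted p = 0.0356). Its other probe set gave -0.29. Its paralogue Ddx17 had 7.48, 7.73 and 7.44 with PLX3397, against 7.63, 7.75 and 7.66 with vehicle, and the groups overlapped (change -0.13, adjusted p = 0.317). Dhx9, the RNA helicase A, was called at -0.32 (SE 0.11, adjusted p = 0.0371). The call of Ddx5 was lost without PLX3397 replicate 1 or 3 or vehicle replicate 1 or 2 (adjusted p of 0.0803 to 0.120), and that of Dhx9 was lost without each of the same 4 arrays (0.0768 to 0.132) and with quantile normalisation (0.0891). Ddx20, the helicase of the SMN complex that assembles the small nuclear ribonucleoproteins, fell by 0.43 (SE 0.11, adjusted p = 0.00863).

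Both genes of the paralogous export helicases fell. Ddx39b, which loads export factors on messenger RNA as part of the TREX complex, had 7.83, 7.78 and 7.59 with PLX3397, against 8.18, 8.34 and 8.16 with vehicle. Ddx39a had 6.42, 6.34 and 6.19 with PLX3397, against 6.94, 6.92 and 6.89 with vehicle. Both sets of arrays were apart, with changes of -0.50 (SE 0.09, adjusted p = 0.00182) for Ddx39b and -0.60 (SE 0.09, adjusted p = 0.000291) for Ddx39a. Ddx19b, which remodels messenger RNA at the outer face of the nuclear pore, was not called at -0.09 (95% interval -0.26 to 0.09).

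The group for translation, decay and RNA granules included the single helicase gene called higher. Of its 5 genes 3 were called lower and 1 higher, against 18.3% and 19.6% of all genes. Among genes with a mean of 6 to 8 log2 the shares were 39.3% and 23.9%. Ddx6, which represses translation and promotes decapping in P-bodies, had 9.94, 9.52 and 9.74 with PLX3397, against 9.47, 9.38 and 9.39 with vehicle. The lowest PLX3397 array came close to the highest vehicle array, and the change was 0.32 (SE 0.11, adjusted p = 0.0378). The call was lost in 9 of 17 alternatives, among them quantile normalisation (adjusted p = 0.0938), and without PLX3397 replicate 1 (0.137), PLX3397 replicate 3 (0.0677), vehicle replicate 1 (0.0628), vehicle replicate 2 (0.104) or vehicle replicate 3 (0.0989). Dhx36, which unwinds G-quadruplexes, had 6.01, 6.10 and 5.63 with PLX3397, against 6.84, 7.22 and 7.05 with vehicle. Both groups were scattered but apart, with a change of -1.12 (SE 0.14, adjusted p = 9.31e-05). Ddx1, a subunit of the tRNA ligase complex, had 8.03, 7.80 and 7.78 with PLX3397, against 8.61, 8.69 and 8.58 with vehicle. Its change was -0.76 (SE 0.09, adjusted p = 9.52e-05). Dhx29, which helps the ribosome to scan structured leader sequences, fell by 0.36 (SE 0.09, adjusted p = 0.00883). Dhx34, a factor of nonsense-mediated decay, was not called at 0.17 (adjusted p = 0.203), and it passed as higher without PLX3397 replicate 3 (0.27, adjusted p = 0.0412).

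Of the mitochondrial helicases, Dhx30, which acts in assembly of the mitochondrial ribosome, fell by 0.34 (SE 0.08, adjusted p = 0.00656), and Ddx28 was not called at -0.11. Ddx11, a DNA helicase of sister chromatid cohesion, was not called at 0.12 (95% interval -0.09 to 0.34). Of 5 proliferation markers 4 were called higher with PLX3397, and Mki67 was not called, at -0.10. Over all genes 19.6% were called higher, and 26.4% of those above background on all 6 arrays. A link between these markers and Ddx11 was not tested. The germ line helicase genes Ddx4 and Ddx43 and the testis gene Ddx25 were below background on all 6 arrays, so no fold is given for them. Dhx57, Dhx32 and Ddx59, whose functions are less defined, had changes of 0.08, 0.13 and -0.13 and were not called. For 18 of the 19 genes that were not called and were above background on all 6 arrays, the 95% interval lay within 0.5 log2 on either side of 0, and the exception was Dhx16 with an upper bound of 0.56. Among these 19 genes 9 changes were below 0.

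Paired related genes had the same call in some pairs and different calls in others. Of 10 pairs, 4 had both genes called lower, namely Ddx21 with Ddx50, Ddx39a with Ddx39b, Ddx42 with Ddx46, and Dhx9 with Dhx30. Within each of these pairs the changes were close, as for Dhx9 (-0.32) and Dhx30 (-0.34). In 5 pairs a single gene was called, and the gap was widest between Dhx36 (-1.12) and Dhx57 (0.08) and between Dhx15 (-1.06) and Dhx32 (0.13). The remaining pair, Dhx8 and Dhx16, had neither gene called. The difference within a pair was not tested. By name, 17 of 33 Ddx genes and 8 of 15 Dhx genes were called lower, with medians of -0.28 and -0.31. Of all genes 18.3% were called lower, and 39.3% of those with a mean of 6 to 8 log2. The 25 genes called lower lay on 11 of the 14 chromosomes that hold any of the 48 genes.

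RNA helicases outside the Ddx and Dhx names were called lower or not called. Of 20 measured, 8 were called lower and 0 higher, with a median change of -0.11. The median change of all genes with a mean of 6 to 8 log2 was -0.12. Of all genes 18.3% were called lower. Among genes with a mean of 6 to 8 log2 it was 39.3%, close to the share of these helicases. At the lower end, Ascc3, a helicase that acts on stalled ribosomes and in DNA repair, fell by 1.35, Mtrex, the helicase that feeds RNA to the nuclear exosome, by 1.16, Ythdc2, which was above background on 2 of 3 PLX3397 arrays, by 1.12 and Eif4a2, a translation initiation helicase, by 0.67.

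Most partner genes of the export helicases and of Ddx1 were called lower. Of 13 genes for TREX, export receptor and nuclear pore partners 10 were called lower and 0 higher, with a median of -0.43. Of all genes 18.3% were called lower. The share was 26.3% of those above background on all 6 arrays and 39.3% of those with a mean of 6 to 8 log2. The THO subunit genes Thoc2 and Thoc1 fell by 1.70 and 1.27, Sarnp by 0.83 and Thoc7 by 0.74. Of 5 tRNA ligase partners of Ddx1, 4 were called lower, with Fam98b at -0.72, Rtraf at -0.57, Fam98a at -0.30 and Rtcb, the ligase itself, at -0.26. Of 8 other SMN complex genes 4 were called lower and 1 higher, with Gemin5 at -0.53, Strap at -0.50 and Gemin7 at 0.28. Gemin2 was also called, at -0.36, and was below background on all PLX3397 arrays.

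Partner genes of Ddx6 went both ways, with 3 of 11 called higher and 5 lower. Over all genes 19.6% were called higher and 18.3% lower, and among those with a mean of 6 to 8 log2 23.9% and 39.3%. The exonuclease gene Xrn1 fell by 1.05, the decapping enzyme gene Dcp2 by 0.79 and Lsm14a by 0.75, while its paralogue Lsm14b rose by 0.51. Edc3 and Edc4, which promote decapping, rose by 0.38 and 0.30. Of 15 genes for G-patch proteins, which bind DHX helicases and switch them on, 6 were called lower and 2 higher. Pinx1 and Nkrf fell by 0.81 and 0.77, and Gpatch1 and Rbm17 by 0.55 and 0.52. For Rbm17 the groups overlapped (adjusted p = 0.0384). The genes called higher were Tfip11, which works with Dhx15 in taking the spliceosome apart, at 0.41, and Zgpat at 0.34. Drosha, the nuclease that Ddx5 and Ddx17 join, fell by 0.65 (adjusted p = 0.000458), and its partner Dgcr8 was not called at -0.14.

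**Figure D4:**
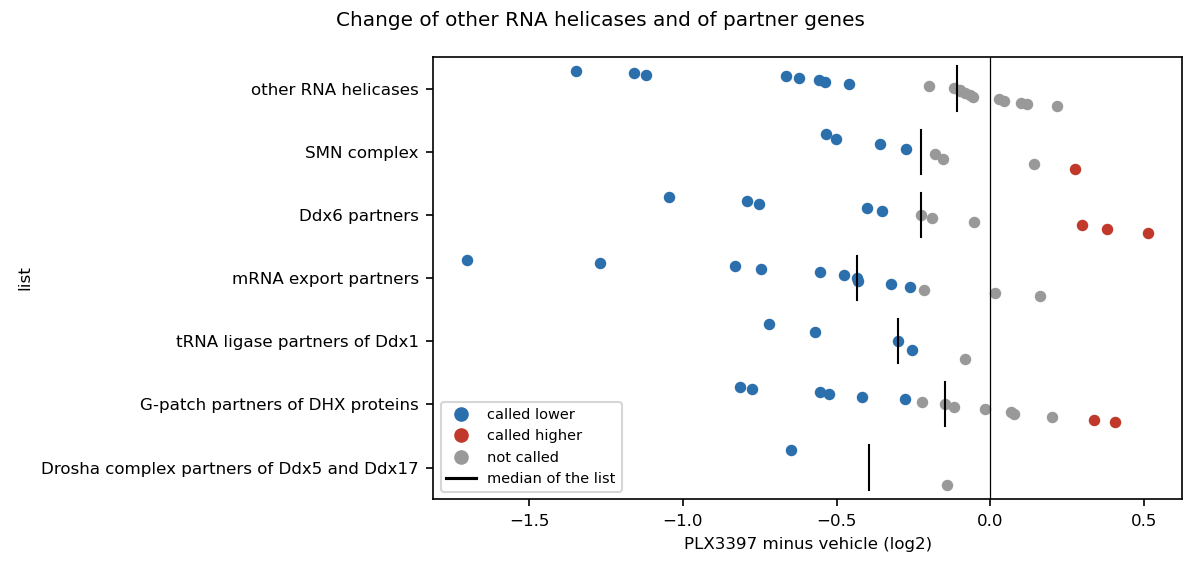
Change of each gene of 7 lists (rows), PLX3397 minus vehicle on the log2 scale (horizontal axis), coloured by call, with the median of the list as a vertical line. The export partners reach down to -1.70 for Thoc2, with 10 of 13 called lower.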

How the data were processed

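Values were used as the authors deposited them, as log2 intensities per probe set of Affymetrix Mouse Gene 1.0 ST arrays. No source states the log base, and base 2 was read from how far the values range. Per the submitters' processing notes MAS5 was named, with no version and no role, while how probes were summarised, normalised and filtered is not given in the sources used. Array medians were 4.32 to 4.35 with PLX3397 and 4.21 to 4.25 with vehicle. No batch is named in the labels, and none was tested. Of 28941 probe sets, 21789 carried 1 symbol, 1621 several and 5531 none. Probe sets of near-identical genes can share signal. All 48 members matched a protein-coding gene of RefSeq by symbol.

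The 2 groups were set against each other in limma 3.58.1 (R 4.3.3), by lmFit and eBayes with no covariate and two-sided p-values, with Benjamini-Hochberg adjustment over 19938 genes and a threshold of 0.05. An exact permutation test of 3 against 3 arrays cannot give a p below 0.1, and the number of arrays limits the precision. The fit was tested on simulated data. Named were the largest changes of each role group and list, both genes of each pair, and genes near the threshold or background. Edc3, Edc4, Tfip11, Zgpat and Dgcr8 were named after their values were seen. Members, role groups, lists and alternatives were chosen with earlier results of these data known.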

Additional observations from a re-analysis of the deposited data

How the results depend on the processing

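The 25 genes called lower and the 1 called higher were recounted in 17 alternatives, and no called gene changed sign. The count of genes called lower was 24 with quantile normalisation, 29 with centred arrays, 22 at an adjusted p below 0.01 and 16 when a change of at least 0.5 log2 was also required. It ran from 22 to 25 when each array was left out in turn. It was 25 in every other setting tried, including the replicate block, whose counts were 25 lower and 1 higher. The count called higher was 3 with quantile normalisation (Dhx16, Ddx47 and Dhx8), 2 with either filter on dim genes, 0 with centred arrays, 0 at an adjusted p below 0.01, 0 with the size minimum, and 0 to 2 when arrays were left out. At an unadjusted p below 0.05 limma gave 26 lower and 2 higher, against 20.6% and 24.6% of all genes. Of the 25 falls, 22 kept the call in all alternatives with the threshold of 0.05 and no size minimum, and Ddx5, Dhx9 and Dhx38 did not. Ddx59 passed as lower with quantile normalisation and with centred arrays, and Ddx24, Ddx41 and Ddx43 with centred arrays. The filters on dim genes removed Ddx4, Ddx25 and Ddx43. Deviations of same-numbered arrays from their group means correlated at -0.01, 0.01 and -0.01. These values show no shared deviation by number. They cannot exclude a pairing, since the labels do not say what the replicate number marks. Genes near background have little room for a measured fall.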
